A study of Caenorhabditis elegans with 12 samples.

Results

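Transcripts of 10 genes for linker histones and histone variants were followed in whole gravid adult Caenorhabditis elegans. The genes were taken by name: his-24, hil-2, hil-3, hil-4, hil-5 and hil-7 for linker histones, his-71 and his-72 for histone H3.3, htz-1 for H2A.Z, and hcp-3 for the centromeric histone H3 (CENP-A). All 10 were among the 45836 gene features counted, and all 10 were among the 14466 that passed the low-count filter.

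Each of 4 groups had 3 libraries made from total RNA after ribosomal RNA depletion. Animals of the F0 group were wild-type N2 that had spent 5 generations at 25 °C; they were harvested 54 to 56 h after plating of eggs. The F3 group descended from such animals, which were moved to 20 °C at the L4 stage and bred there for 3 generations, with collection at 72 to 76 h. The control group was N2 kept at 20 °C in parallel, and all groups descend from worms held at 20 °C for over 20 generations. The set-25 group was strain MT17463, carrying set-25(n5021), also at 20 °C and harvested at 72 to 76 h; SET-25 is a histone methyltransferase acting on lysine 9 of histone H3. Every replicate came from 3 plates of animals, and a gravid adult carries its germ line, oocytes and embryos, so each library mixes tissues and stages. F0 thus differs from F3 and set-25 in temperature and in hours of growth, and these cannot be told apart; the hours of growth of the control are not given separately. Whether a lower value reflects fewer cells of a type or less RNA per cell cannot be told apart.

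Linker histones bind the DNA between nucleosomes and help to compact chromatin. Histone variants replace core histones outside DNA replication: H3.3 is placed where nucleosomes are turned over, H2A.Z sits at many promoters, and CENP-A marks the chromatin on which kinetochores are built, which in this worm extends along the whole chromosome. Core histone messages are mostly made from clustered genes during DNA replication and lack a poly(A) tail, whereas variants are mostly made from dispersed genes with introns. In the adult worm the germ line holds most dividing cells, and the X chromosome is largely silent there.

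Counts over genes and repeat copies summed to between 28217840 and 35483865 in each wild-type library. For set-25 they came to 22682534 in library 1, 26289581 in library 2 and 10678819 in library 3. The share of ribosomal RNA genes was 2.66 to 4.16% in wild type and 7.54%, 3.47% and 14.4% in set-25 libraries 1, 2 and 3. Genotype and library series cannot be told apart for the mutants, since their growth notes name no parallel wild type. The set-25 transcript was at 50.7 to 59.2 CPM (counts scaled to library size, with TMM factors) in the mutants and 65.9 to 69.7 CPM in control; no source used here describes what n5021 removes, so this level is no check of the labels. In F0 the set-25 transcript fell as well (log2 -0.34, SE 0.07, adjusted p 0.00189 by edgeR). The 4 adult-stage markers (col-19, vit-2, vit-5 and vit-6) and the 8 markers each of germ line, oocyte, sperm, early embryo, intestine, epidermis, muscle and neuron were detected in every group.

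Small differences in both directions were called in the 25 °C animals and the mutants. Descendants 3 generations after the return to 20 °C had no gene of the 10 called. Over all genes tested, 28.7% were called in F0, 17% in set-25 and 0.263% in F3, each against control. At 25 °C, his-24 and the H3.3 gene his-71 rose, and hil-2 and htz-1 fell. In set-25 mutants, hil-3 and htz-1 rose, and hil-2, hil-4, hil-5 and his-72 fell. Between F0 and F3, htz-1 rose and his-24, hil-3 and his-71 fell. Calls are at an adjusted p under 0.05 in edgeR's quasi-likelihood test with Benjamini-Hochberg adjustment over all 14466 genes, with 3 libraries per group.

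In F0 against control 4 of the 10 genes were called, beside 28.7% of all genes tested, with 2 higher (16.6% of all genes) and 2 lower (12% of all genes). In F3 against control 0 of 10 were called by edgeR and 0 by DESeq2, beside 0.263% of all genes by edgeR; 2 of 10 were at an unadjusted p under 0.05, beside 5.05% of all genes. In set-25 against control 6 of 10 were called, beside 17% of all genes, with 2 higher (8.9% of all genes) and 4 lower (8.14% of all genes). In F3 against F0 4 of 10 were called, beside 30.4% of all genes, with 1 higher (13.1% of all genes) and 3 lower (17.3% of all genes). Several calls ended when 1 library was left out. Over such fits 1 to 2 of 10 were called in F0 against control, beside 3236 to 3385 of all genes. In F3 against F0 3 to 5 were called, beside 3450 to 4852 of all genes. In F3 against control this range was 0 to 2, beside 20 to 104 of all genes, and in set-25 it was 3 to 5, beside 1593 to 1919. With only the 6 libraries compared 6 of 10 were called in F0 and 8 in set-25, counts that are not set against all genes here. The set-25 share is above that of all genes, and 0 of 10 were called when set-25 libraries 1 and 3 were left out, with 1 mutant library assumed to vary like the other groups. The log2 values of the 6 genes then kept their direction, at -0.28 for hil-2, 0.44 for hil-3, -0.29 for hil-4, -0.25 for hil-5, -0.48 for his-72 and 0.19 for htz-1. By control CPM these 6 stood at percentiles 78.2, 47.1, 96.2, 96.5, 89.7 and 96.2 of the tested genes, in the same order. The share called among genes of like level was not computed, so the 6 of 10 is set only against genes of all levels. Median log2 fold changes of the 10 genes were 0.10 in F0, -0.06 in F3 and -0.15 in set-25 against control, and -0.11 in F3 against F0, while the median of all genes lay within 0.01 of 0 in each comparison. Groups did not overlap for 6 of 10 genes in F0 (50.4% of all genes), 2 in F3 (9.21%) and 8 in set-25 (39.7%), each against control, and for 3 in F3 against F0 (41.6%).

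**Figure D1:**
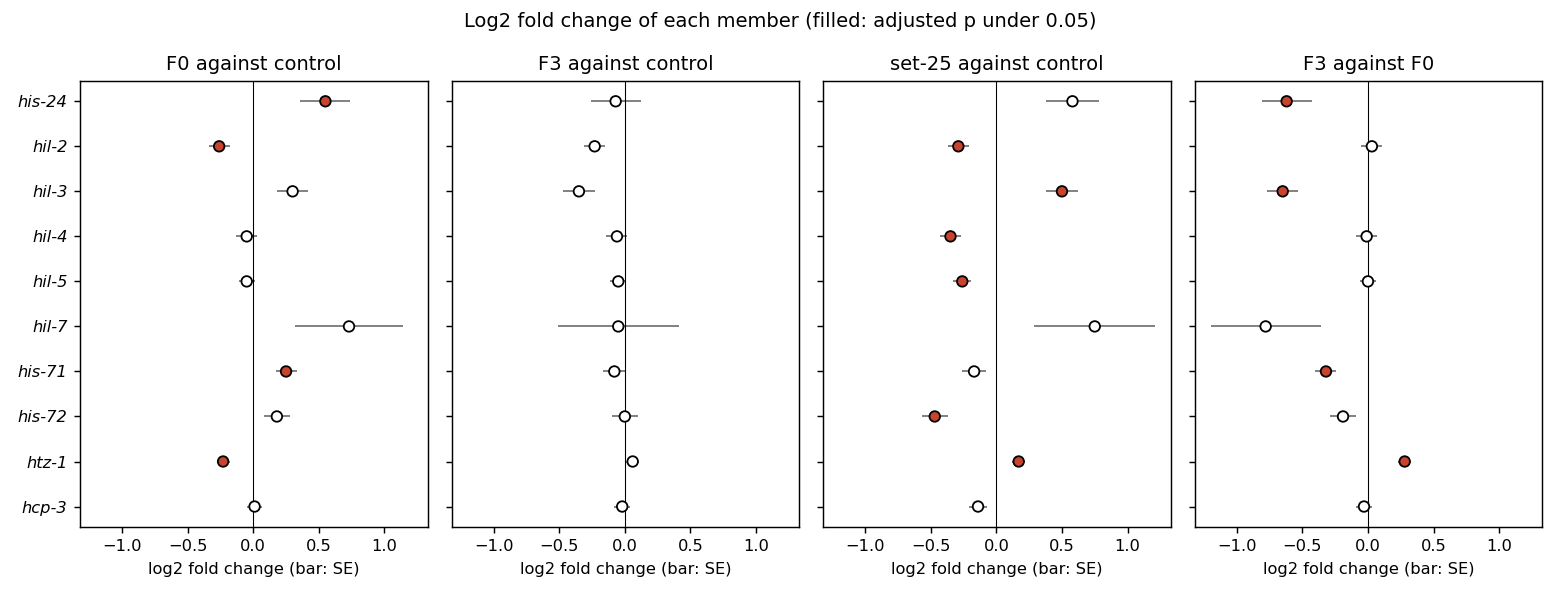
Log2 fold change (x axis, bar = SE) of each of the 10 genes (y axis) in the 4 comparisons, 1 panel each; filled points have an adjusted p under 0.05. The filled points number 4, 0, 6 and 4 from left to right, and all lie between -0.65 and 0.55.

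To compare levels between genes, CPM was divided by annotated exon length (WBcel235 annotation). In controls htz-1 was highest at 394 ± 6.06 CPM per kilobase (SD, n = 3), followed by hil-5 at 355 ± 12.9, hil-4 at 303 ± 9.14 and his-72 at 206 ± 5.84. Next came hcp-3 at 101 ± 2.62, hil-2 at 81.9 ± 0.678, his-71 at 20.5 ± 1.52, his-24 at 11.1 ± 0.637 and hil-3 at 9.05 ± 0.199 CPM per kilobase. The linker histone gene hil-7 was far below the rest at 0.571 ± 0.253 CPM per kilobase, from a total of 32 counts in the 3 control libraries. No neighbours in this order overlapped in control. In F0 hil-5 (343 ± 6.42 CPM per kilobase) and htz-1 (337 ± 9.15) overlapped and changed places, in F3 hil-5 overlapped hil-4 and his-24 overlapped hil-3, and in set-25 his-71 overlapped his-24 and his-24 overlapped hil-3. The genes on the X chromosome (his-71, his-24 and hil-3) held places 7, 8 and 9, and the autosomal genes held places 1 to 6 and 10.

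**Figure D2:**
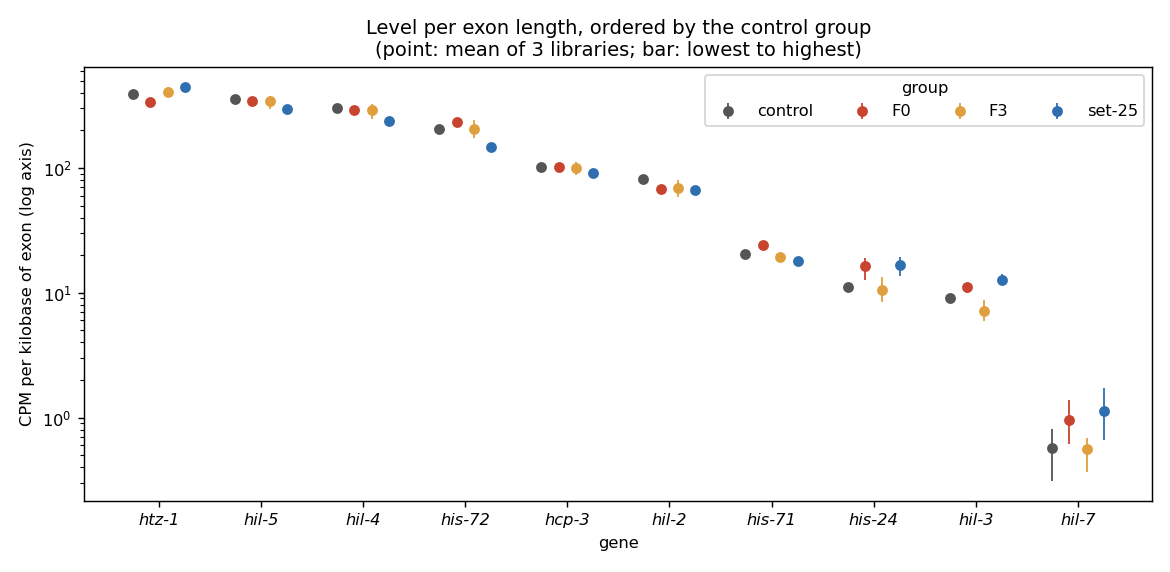
Level per kilobase of annotated exon (log axis) of each gene in each group, as the mean of 3 libraries with a bar from lowest to highest. The control means run from 394 CPM per kilobase for htz-1 to 0.571 for hil-7.

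The linker histone genes hil-4 (chromosome V) and hil-5 (chromosome I) made up 87.7 to 88.5% of the CPM summed over the 6 linker histone genes his-24, hil-2, hil-3, hil-4, hil-5 and hil-7 in controls. In control libraries 1, 2 and 3 hil-4 was at 296, 279 and 293 CPM, and in F0 at 278, 278 and 283. In F3 libraries 1, 2 and 3 it was at 235.1, 285 and 312 CPM, and in set-25 at 233, 237 and 212. All 3 mutant libraries were below all controls, whereas F0 and F3 overlapped control. Transcripts of hil-4 fell in set-25 (log2 -0.35, SE 0.08, adjusted p 0.0122 by edgeR), and stayed called in each of 6 fits without 1 library (-0.39 to -0.30). Without set-25 libraries 1 and 3 the value was -0.29 and was not called.

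The companion gene hil-5 was at 319, 296 and 308 CPM in control, 301, 291 and 301 in F0, and 257, 307 and 327 in F3. In set-25 libraries 1, 2 and 3 it was at 262, 259.5 and 251 CPM, below all controls. Transcripts of hil-5 fell there (log2 -0.26, SE 0.07, adjusted p 0.0145 by edgeR), a call lost when control replicate 1 or set-25 replicate 3 was left out (-0.24 in both) and without set-25 libraries 1 and 3 together (-0.25). Counts of hil-5 per hil-4 count ran from 1.05 to 1.09 over the 9 wild-type libraries and from 1.10 to 1.18 in the mutants. All 12 deposited values of both genes were not whole, so part of their reads may be shared with other features. Between F0 and control hil-4 was at -0.05 (SE 0.08) and hil-5 at -0.05 (SE 0.06), neither called.

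The linker histone gene hil-2 (chromosome IV) was highest in controls. Its libraries 1, 2 and 3 stood at 62.3, 61.3 and 62.2 CPM in control, 50.35, 54.7 and 50.04 in F0, 44.5, 53.3 and 60.4 in F3, and 51.8, 50.9 and 48.97 in set-25. Every library of the other groups was below every control. Transcripts fell in F0 (log2 -0.26, SE 0.08, adjusted p 0.0224 by edgeR) and in set-25 (-0.29, SE 0.08, adjusted p 0.0274). The F0 call was lost without F0 replicates 1 and 3 (-0.25 in both) and without control replicates 1 and 3 (-0.27 in both). The set-25 call was lost in each of 6 fits without 1 library (-0.31 to -0.27) and without set-25 libraries 1 and 3 (-0.28). In F3 the value of hil-2 was -0.23 (SE 0.08, unadjusted p 0.0104, adjusted p 0.769 by edgeR), and it was called only without F3 replicate 3 (-0.34, adjusted p 0.0115) and with no low-count filter (-0.24, adjusted p 0.0038).

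The X-linked linker histone genes his-24 and hil-3 stood above control in both F0 and set-25, which no autosomal linker gene other than the barely detected hil-7 did on average. The other X-linked gene of the 10, his-71 for H3.3, was at log2 0.25 in F0 and -0.17 in set-25. HIS-24 is the best-studied worm linker histone and is linked to silencing in the germ line. In control libraries 1, 2 and 3 his-24 was at 10.02, 10.9 and 9.83 CPM, and in F0 at 11.8, 15.9 and 17.5. In F3 it was at 7.73, 9.37 and 12.4 CPM and in set-25 at 17.8, 12.6 and 15.99. F0 and set-25 each lay above control, F0 replicate 1 by the least, and F3 overlapped control. Transcripts of his-24 rose in F0 (log2 0.55, SE 0.19, adjusted p 0.0464 by edgeR). This call was lost without F0 replicates 2 (0.50) and 3 (0.42) and without control replicates 1 (0.52), 2 (0.59) and 3 (0.51). In set-25 his-24 was at 0.58 (SE 0.20, adjusted p 0.0705), not called by edgeR, and called by DESeq2 (0.59, adjusted p 0.00809), with the replicate block (0.60, adjusted p 0.049), with only the 6 libraries compared (0.58, adjusted p 0.00179), with no low-count filter (0.55, adjusted p 0.00155) and without set-25 replicate 2 (0.72, adjusted p 0.0415). Against F0 the F3 level of his-24 fell (log2 -0.62, SE 0.19, adjusted p 0.0285, with overlapping groups), a call lost without F0 replicates 2 (-0.57) and 3 (-0.49), without F3 replicates 1 (-0.46) and 2 (-0.58), and with only the 6 libraries compared (-0.61). The antisense noncoding RNA genes that overlap its exons, M163.16 and M163.19, had at most 1 count in any library.

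Transcripts of hil-3 were at 7.60, 7.85 and 7.94 CPM in control libraries 1, 2 and 3 and at 8.64, 9.99 and 10.1 in F0. In F3 they were at 5.09, 5.82 and 7.47 CPM and in set-25 at 12.1, 10.6 and 10.1. F0 and set-25 lay above all controls and F3 below all controls. The gene rose in set-25 (log2 0.50, SE 0.12, adjusted p 0.00946 by edgeR), a call lost without set-25 replicate 1 (0.42) and without set-25 libraries 1 and 3 (0.44). In F0 it was at 0.30 (SE 0.12, adjusted p 0.069), called only with the 6 libraries compared (0.29, adjusted p 0.0165). In F3 it was at -0.35 (SE 0.12, unadjusted p 0.011, adjusted p 0.79), called only without F3 replicate 3 (-0.52, adjusted p 0.0445). Against F0 the F3 level of hil-3 fell (log2 -0.65, SE 0.12, adjusted p 0.000595), and stayed called in each of 6 fits without 1 library (-0.81 to -0.51).

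The low gene hil-7, annotated on chromosome IV, had totals of 32 counts in control, 57.1 in F0, 29.5 in F3 and 29 in set-25. Its level ran from 0.178 to 0.467 CPM in control, 0.353 to 0.798 in F0, 0.210 to 0.392 in F3 and 0.379 to 0.984 in set-25. All groups overlapped control. Log2 values were 0.73 (SE 0.41) in F0 and 0.75 (SE 0.46) in set-25, neither called, and with intervals of -0.07 to 1.53 and -0.16 to 1.66 a difference of this size was not detectable at this depth.

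**Figure D3:**
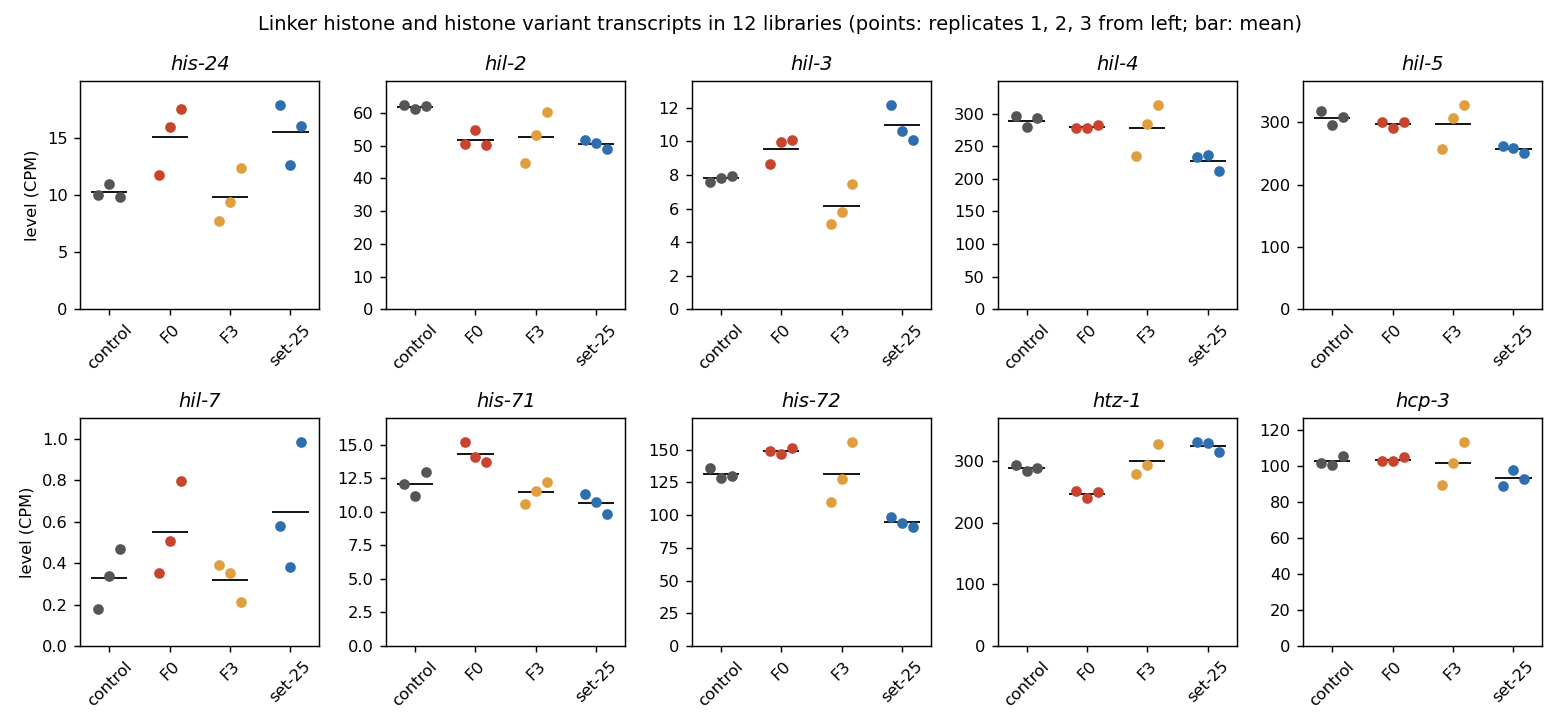
Level in CPM (y axis from 0, scaled per gene) of each of the 10 genes in the 12 libraries, with replicates 1, 2 and 3 from left to right in each group and a bar at the mean. Control points lie close together, from 128.7 to 135.7 CPM for his-72, while F3 points spread from 110.3 to 155.7.

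F3 libraries differed more among themselves than controls did. Over the 9 genes other than hil-7, library 1 was the lowest F3 library and library 3 the highest in each. The coefficient of variation of these 9 genes was 7.32 to 24% in F3 and 0.827 to 7.42% in control. The chi-square per degree of freedom between libraries of a group, over all tested genes, was 18.8 to 41.4 in F3, 64.8 to 264 in set-25, 5.61 to 5.79 in F0 and 4.04 to 4.6 in control. The test used 1 estimate of spread shared by all groups. In F3 against control the 95% interval of the log2 value was -0.20 to 0.19 for his-72, -0.22 to 0.10 for hil-4, -0.18 to 0.08 for hil-5, -0.25 to 0.09 for his-71, -0.04 to 0.15 for htz-1 and -0.14 to 0.10 for hcp-3. It was wider for his-24, at -0.45 to 0.31, and for hil-7, at -0.95 to 0.85. For hil-2, at -0.39 to -0.08, and for hil-3, at -0.59 to -0.11, it left out 0, although neither passed the adjusted threshold.

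Histone H3.3 is encoded by his-71 on the X chromosome and his-72 on chromosome III, and his-72 gave 8.68 to 12.7 counts per his-71 count. In control libraries 1, 2 and 3 his-72 was at 136, 129 and 130 CPM, and in F0 at 149, 147 and 151. In F3 it was at 110.3, 128 and 156 CPM and in set-25 at 98.8, 94.2 and 90.9. All mutant libraries lay below every other library, and all F0 libraries lay above every control. Transcripts of his-72 fell in set-25 (log2 -0.47, SE 0.10, adjusted p 0.012 by edgeR), to 0.722 of control, and stayed called in each of 6 fits without 1 library (-0.50 to -0.45). Without set-25 libraries 1 and 3 the value was -0.48 and was not called. In F0 his-72 was at 0.18 (SE 0.10, adjusted p 0.201 by edgeR), and with only the 6 libraries of that comparison it was called (0.18, adjusted p 0.000114). From F0 to F3 it was at -0.19 (SE 0.10), called without F3 replicate 3 (-0.32, adjusted p 0.00011).

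The lower-level gene his-71 was at 12.1, 11.2 and 13.01 CPM in control libraries 1, 2 and 3 and at 15.2, 14.1 and 13.7 in F0. In F3 it was at 10.6, 11.6 and 12.2 CPM and in set-25 at 11.4, 10.7 and 9.84. F0 lay above control, F3 and set-25 overlapped it, and F3 lay below F0. Transcripts of his-71 rose in F0 (log2 0.25, SE 0.08, adjusted p 0.0339 by edgeR), a call lost without F0 replicates 1 (0.19), 2 (0.25) and 3 (0.27), without control replicates 1 (0.23) and 2 (0.18), by DESeq2 (0.24, adjusted p 0.0579), with no low-count filter (0.24) and with the replicate block (0.25, adjusted p 0.052). Against F0 they fell in F3 (log2 -0.32, SE 0.08, adjusted p 0.00707), a call lost without F0 replicate 1 (-0.27, adjusted p 0.0508). In set-25 his-71 was at -0.17 (SE 0.09, adjusted p 0.23). All 12 deposited values of his-71 and of his-72 were not whole, and reads may have been divided among similar H3 genes.

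The H2A.Z gene htz-1 (chromosome IV) differed in opposite directions in warmth and in the mutant. In control libraries 1, 2 and 3 it was at 294, 285 and 289 CPM, and in F0 at 253, 239.7 and 249.6. In F3 it was at 279.8, 293 and 329 CPM and in set-25 at 331, 329.6 and 315. F0 lay below and set-25 above every control, and F3 overlapped control. Transcripts of htz-1 fell in F0 (log2 -0.23, SE 0.05, adjusted p 0.0023 by edgeR), and stayed called in each of 6 fits without 1 library (-0.25 to -0.21). They rose from F0 to F3 (0.28, SE 0.05, adjusted p 0.000345), again in each of 6 such fits (0.21 to 0.35). In set-25 they rose by 0.17 (SE 0.05, adjusted p 0.0236), a call lost without control replicates 1 (0.18), 2 (0.15) and 3 (0.16), without set-25 replicates 1 (0.16) and 2 (0.15), and without set-25 libraries 1 and 3 (0.19).

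The CENP-A gene hcp-3 (chromosome III) was called in no comparison. Its level was at 102, 101 and 106 CPM in control libraries 1, 2 and 3, 103, 103 and 105 in F0, and 89.3, 102 and 113 in F3. In set-25 it was at 88.9, 97.5 and 92.5 CPM, below every control. Its log2 values were 0.01 (SE 0.06) in F0, -0.02 (SE 0.06) in F3 and -0.14 (SE 0.07, adjusted p 0.155 by edgeR) in set-25. The set-25 difference was called with only the 6 libraries compared (-0.14, adjusted p 0.0187) and with no low-count filter (-0.17, adjusted p 0.00528). The overlapping protein-coding gene on the other strand, F58A4.6, was at 12.9 to 14.9 CPM over the 12 libraries, and reads of the pair could be mixed if strand was not used in counting.

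Each variant was also set against its counterpart within a library, as a ratio of scaled counts, not per length, and with no test. Together his-71 and his-72 gave 23.2 to 24 counts per 1000 counts of 15 replication-dependent H3 genes in control. They gave 26.2 to 27 in F0, 23.3 to 25.9 in F3 and 19.8 to 21 in set-25. The variant genes his-69, his-70 and his-74 are in neither sum, so this is not the share of all H3 variants. The ratio of F0 was above and that of set-25 below every control. Counts of htz-1 were 4.24 to 4.31% of those of 16 replication-dependent H2A genes in control, 3.57 to 3.67% in F0, 4.45 to 5.70% in F3 and 5.49 to 5.56% in set-25. This ratio was below control in F0 and above it in F3 and set-25; in F3 the summed H2A genes ran from 4907 to 7386 CPM against 6614 to 6923 in control.

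The gene cpar-1 encodes a second CENP-A-like protein, described in meiosis. Counts of hcp-3 per cpar-1 count were 1.92 to 1.97 in control, 2.37 to 2.43 in F0, 1.91 to 2.11 in F3 and 1.61 to 1.69 in set-25. In F0 cpar-1 fell (log2 -0.30, SE 0.06, adjusted p 0.000745 by edgeR) while hcp-3 was at 0.01. The linker gene his-24 gave 1.44 to 1.67% of the CPM of the same 6 linker genes in control, 1.81 to 2.65% in F0, 1.41 to 1.72% in F3 and 2.21 to 3.09% in set-25.

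**Figure D4:**
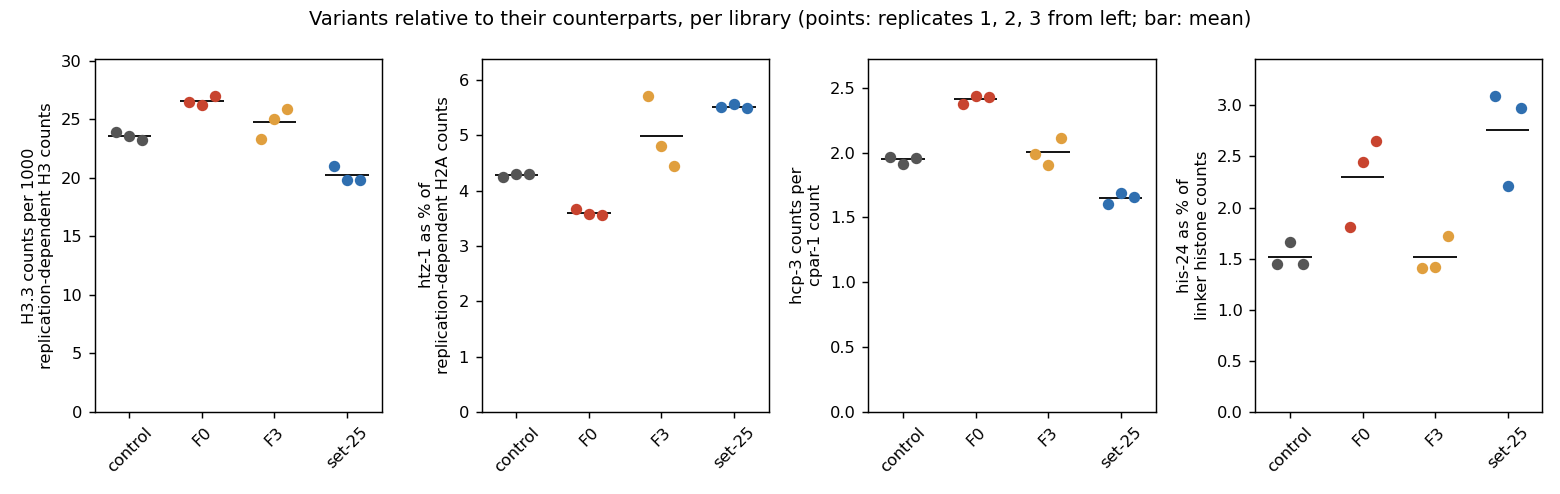
Ratios of variant to counterpart in each library (y axes from 0), with replicates 1, 2 and 3 from left to right in each group and a bar at the mean. The H3.3 ratio, from his-71 and his-72 only, is 26.2 to 27 per 1000 in F0 and 19.8 to 21 in set-25. These lie on either side of control, and the htz-1 share is lowest in F0.

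Some sums of marker genes stood apart from control in F0 or set-25, and others overlapped it. The summed level of 8 oocyte markers was 7384 to 7674 CPM in F0 against 8105 to 8316 in control, and that of 8 sperm markers 29.1 to 39.6 CPM against 1.03 to 6.50; no marker was at 0. Intestine markers were at 30802 to 35986 CPM in F0 against 38059 to 41346, muscle markers at 2476 to 2753 against 2085 to 2327, and early embryo markers at 13.4 to 14.6 against 8.59 to 13.01. The adult-stage markers, 3 of which are also intestine markers, were at 30116 to 35362 CPM in F0, 44395 to 48360 in set-25 and 36877 to 40159 in control. Germ line markers were at 1962 to 2054 CPM in F0, 1957 to 1980 in set-25 and 1959 to 1977 in control. Epidermis markers, at 7228 to 7605 CPM, and neuron markers, at 172 to 176, overlapped control in F0. Oocyte markers, at 7888 to 8378 CPM, and sperm markers, at 2.26 to 11.2, overlapped control in set-25. Each marker sum of F3 overlapped that of control. In set-25 intestine markers were at 45927 to 49636 CPM, epidermis markers at 5774 to 6645 against 7223 to 7514 in control, and neuron markers at 149 to 161 against 169 to 174. The part of these shifts, and of ribosomal RNA in set-25 libraries 1 and 3, in the differences of the histone genes was not tested.

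Other genes of the same chromatin pathways were followed as lists. Of 12 further variants and sperm chromatin genes 11 were tested; in F0 4 were higher (16.6% of all genes) and 1, cpar-1, was lower (12% of all genes), with a median log2 of 0.18. The higher ones were htas-1, a sperm H2A variant (3.32, SE 0.41, adjusted p 1.05e-05 by edgeR), and the sperm chromatin genes spch-1 (2.62, SE 0.61), spch-2 (3.17, SE 0.38) and spch-3 (3.47, SE 0.43), listed as C04G2.8, C10G11.9 and T27A3.4. All were low, with htas-1 at 1.29 CPM in F0 and 0.129 in control, and they moved with the sperm markers above. Against F0, 5 of 11 fell in F3 (17.3% of all genes), these 4 and his-35, an H2A gene (-0.35, SE 0.07). The 1 that rose (13.1% of all genes) was cpar-1 (0.24, SE 0.06). In F3 0 of 11 were called against control by edgeR, beside 0.263% of all genes. In set-25 0 of 11 were higher (8.9% of all genes) and 2 were lower (8.14% of all genes). In set-25 the linker histone gene hil-8 fell (-1.70, SE 0.38, adjusted p 0.00505, from 0.708 to 0.222 CPM), as did his-35 (-0.26, SE 0.08).

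Among 24 histone chaperone and variant-loading genes 5 fell (12% of all genes) and 0 rose (16.6% of all genes) in F0, with a median log2 of -0.07, and the 5 called are a smaller share than the 28.7% of all genes called in either direction. They were mys-1, an acetyltransferase (-0.20, SE 0.04, adjusted p 0.00208 by edgeR), ekl-4 (-0.15, SE 0.04), the ATPase gene ruvb-1 (-0.15, SE 0.04), rba-1, a histone-binding protein gene (-0.11, SE 0.04), and the FACT subunit gene hmg-3 (-0.12, SE 0.04). From F0 to F3 8 of the 24 rose (13.1% of all genes) and 0 fell (17.3% of all genes), among them mys-1 (0.19, SE 0.04), ekl-4 (0.16, SE 0.04), chaf-2, a chromatin assembly factor gene listed as Y71G12B.1 (0.19, SE 0.06), trr-1 (0.15, SE 0.05) and ssl-1, the worm SWR1-type ATPase gene (0.20, SE 0.06). None of the 24 (0) was called by edgeR in F3 against control, beside 0.263% of all genes. Against control 2 of the 24 rose in set-25 (8.9% of all genes) and 2 fell (8.14% of all genes). In set-25 cdl-1, which encodes the protein binding the stem-loop of core histone messages, rose (0.28, SE 0.04, adjusted p 8.33e-05), as did chaf-1, listed as T06D10.2 (0.15, SE 0.05), and epc-1 (-0.25, SE 0.04) and asfl-1, an H3 and H4 chaperone gene (-0.22, SE 0.06), fell. The H3.3 chaperone gene hira-1, listed as K10D2.1, was at -0.03 (SE 0.04) in F0 and 0.11 (SE 0.04, adjusted p 0.0804) in set-25.

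Of 27 centromere and kinetochore genes 8 fell (12% of all genes) and 0 rose (16.6% of all genes) in F0, with a median log2 of -0.10, and the 8 called are close to the 28.7% of all genes called in either direction. They included the kinetochore genes him-10 (-0.21, SE 0.04, adjusted p 0.000745 by edgeR), knl-1 (-0.17, SE 0.04) and bub-3 (-0.17, SE 0.04), the condensin gene hcp-6 (-0.15, SE 0.04) and mis-12 (-0.16, SE 0.05). From F0 to F3 9 rose and 0 fell, beside 30.4% of all genes called in either direction, with him-10 at 0.19 (SE 0.04), bub-3 at 0.20 (SE 0.04), hcp-6 at 0.17 (SE 0.04), knl-1 at 0.16 (SE 0.04) and mis-12 at 0.16 (SE 0.05). Against control 0 of 27 were called by edgeR in F3, beside 0.263% of all genes. In set-25 1 rose (8.9% of all genes), the spindle checkpoint gene mdf-1 (0.14, SE 0.04), and 0 fell (8.14% of all genes).

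The replication-dependent core histone genes, the counterparts of H3.3 and H2A.Z, are packed in near-identical copies, so their single values are uncertain. Of 15 H3 genes 5 were higher (16.6% of all genes) and 1 lower (12%) in F0, 4 lower in F3 (0.124%) and 5 lower in set-25 (8.14%), each against control. Their medians were -0.02, -0.05 and -0.27. Of 16 H2A genes 1 was higher (16.6% of all genes) and 2 lower (12%) in F0, and 1 was lower in F3 (0.124%). In set-25 0 of 16 were called by edgeR (median -0.15), beside 17% of all genes. The 4 H3 genes lower in F3 were his-25 (-0.66, SE 0.05, adjusted p 9.71e-07 by edgeR), his-42 (-0.43, SE 0.06), his-13 (-0.49, SE 0.07) and his-9 (-0.47, SE 0.07), and the H2A gene was his-43 (-0.59, SE 0.09, adjusted p 0.0248). Each of these 5 was higher in F0 against control, with his-25 at 0.18 (SE 0.05), his-42 at 0.28 (SE 0.06), his-13 at 0.25 (SE 0.07), his-9 at 0.25 (SE 0.07) and his-43 at 0.34 (SE 0.09), and both comparisons share the control libraries. In F3 libraries 1, 2 and 3 his-25 was at 112, 116 and 132 CPM, below the 186 to 191 of control, whereas his-71 and his-72 overlapped control. In the same libraries his-9 was at 111, 115 and 131 CPM and his-13 at 111, 114 and 131. Deposited values of his-9 and his-13 were nearly the same in F3 library 1 (3396.74 and 3394.81). Reads may have been divided among such copies, so the 4 lower H3 genes may not be 4 separate results.

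**Figure D5:**
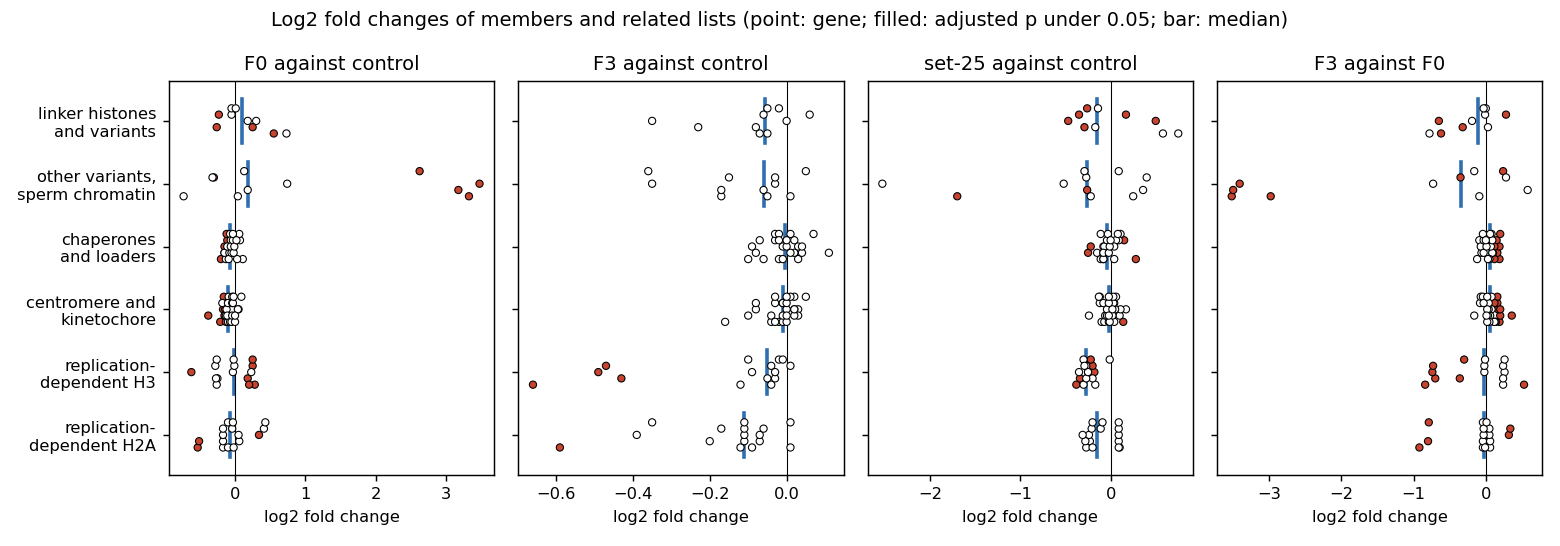
Log2 fold changes (x axis, with its own range in each panel) of the 10 genes and of 5 related lists (rows), with filled points at an adjusted p under 0.05 and a bar at each list's median. In F0 the called chaperone and kinetochore genes all lie below 0, and the called sperm chromatin genes and htas-1 lie between 2.62 and 3.47.

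The likeness of patterns was measured as the root mean square distance between log2(CPM + 1) values over the 12 libraries, each gene centred on its own mean, among 3775 genes with a class name and a mean of at least 10 CPM. Nearest to hil-5 were rpl-4 (0.03) and hmg-12 (0.032), nearest to hil-4 were cyn-7 (0.0341) and rpl-15 (0.0362), and nearest to hil-2 were rps-25 (0.0571) and rps-4 (0.0598). Nearest to hcp-3 were mecr-1 (0.0219) and ebp-2 (0.0371), to htz-1 rnp-8 (0.0521) and snf-6 (0.0524), to his-72 snb-1 (0.0665) and rpl-11.2 (0.0695), and to his-71 isp-1 (0.0668) and cco-1 (0.0674). For his-24 they were sdz-30 and cav-1 (0.149 each), for hil-3 clec-83 (0.168) and hpo-6 (0.172), and for hil-7 tir-1 (0.12) and arrd-25 (0.123). The distance grows with a gene's own spread around its mean, which was 0.343 for his-24 and 0.31 for hil-3 against 0.0973 for hcp-3 and 0.126 for hil-5. For hil-7, at 0.178 to 0.984 CPM, the 1 added to CPM flattens the pattern (spread 0.208). Its distances therefore cannot be compared with those of the other genes. Within the 10 genes hil-4 and hil-5 were the closest pair (0.0489), and his-24 was closer to hil-3 (0.153) than to hil-4 (0.418). These distances also carry what the libraries share, such as depth and the spread within F3.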

How the data were processed

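The authors deposited 1 table of 99761 features, 45836 genes and 53925 repeat copies, with estimated counts that need not be whole (22.4% were not, within 1e-06). The submitters' processing notes list TopHat2 2.1.0, featureCounts 1.5.1 and DESeq2 1.8.1 without saying what each did; the genome build, gene models, use of strand and counting of multiply matching reads are not stated there. Libraries were stranded, depleted of ribosomal RNA and not selected for poly(A), per the labels' protocols. Expected counts were rounded for testing, where the design had assumed counts.

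Genes were tested with edgeR 4.0.16 (robust quasi-likelihood fit, TMM, filterByExpr by group, limma 3.58.1) in R 4.3.3, with all 12 libraries in 1 fit and Benjamini-Hochberg adjustment at 0.05; tests were two-sided. DESeq2 1.42.0 was an alternative. Labels call the libraries biological replicates. Each edgeR p-value weighs a group difference against the spread between replicate libraries, estimated once over all 4 groups although it differed between them. Lengths and chromosomes come from the WBcel235 annotation, coordinates are not printed, and 7 list genes were matched by their older names. The text names the 10 genes throughout, up to 5 called genes per list and the 2 nearest patterns per gene; hira-1 was added after its value was seen. Members and lists were chosen with earlier results of these data known.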

Additional observations from a re-analysis of the deposited data

How the results depend on the processing

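Each call made on the 10 genes with all 12 libraries kept its direction in every alternative run. The count of the 10 genes called in F3 was 1 with no low-count filter, and that of all genes was 96 with no filter and 15 with only the 6 libraries compared. Without set-25 libraries 1 and 3 the set-25 counts were 0 and 742. Leaving out 1 library in turn gave 1 to 2 of 10 genes in F0, 0 to 2 in F3, 3 to 5 in set-25 and 3 to 5 in F3 against F0, and 3236 to 3385, 20 to 104, 1593 to 1919 and 3450 to 4852 over all genes, in the same order. With only the 6 libraries compared 6, 0, 8 and 3 of 10 were called in that order, set against all genes here only for F3 against control. By DESeq2 3, 0, 7 and 4 of 10 were called, beside 3696, 45, 2366 and 3976 of all 14466 genes. With no filter 3, 1, 8 and 4 of 10 were called, beside 4649, 96, 2953 and 4759 of all 26920 genes. Size factors by RLE or upper quartile, and library sizes without ribosomal RNA, left each count of the 10 genes as it was.

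Values uncalled with all 12 libraries and near 0 changed sign, and 1 of them, hil-5 in F3 against F0, was called once its sign had turned. In F3 against control his-72 was at 0.00301 with RLE factors, 0.00329 by DESeq2 and 0.00266 without ribosomal RNA. In F3 against F0 hil-5 was at 0.0083 with RLE factors, 0.00833 by DESeq2, 0.0121 without ribosomal RNA, 0.00333 with only the 6 libraries and 0.000572 without set-25 libraries 1 and 3, and hil-4 at 0.00174 without ribosomal RNA. In F0 hcp-3 was at -0.00179 with no filter. Leaving out 1 library gave ranges across 0 for hcp-3 in F0 (-0.0198 to 0.0187). In F3 against F0 these were hil-2 (-0.0781 to 0.151), hil-4 (-0.105 to 0.108), hil-5 (-0.0761 to 0.107) and hcp-3 (-0.112 to 0.0705), with hil-2 and hil-5 called without F3 replicate 1. In F3 against control they were his-24 (-0.264 to 0.0804), hil-4 (-0.154 to 0.0479), hil-5 (-0.126 to 0.0459), hil-7 (-0.313 to 0.273), his-72 (-0.145 to 0.109), htz-1 (-0.0122 to 0.109) and hcp-3 (-0.104 to 0.0665). The cause was not tested.

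Same-numbered libraries correlated at -0.131 to 0.142 in their deviations from group means. Of 3 pairs, 1, 0, 0 and 2 were best with their own number in F0, F3 and set-25 (each against control) and F3 against F0. With 3 pairs per comparison, whether the numbers pair the samples cannot be told. With the replicate block 3, 0, 7 and 4 of 10 genes were called in these comparisons, and 3857, 35, 2220 and 4122 genes in all. The smallest library, set-25 replicate 3, held 10678819 counts.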
